A study of Mus musculus with 3 samples.

Results

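The miR-222 and miR-221 pair was examined in small RNA libraries of cultured mouse aortic smooth muscle cells (AoSMC). Its members were every row of the count tables with the name stem mmu-miR-222 or mmu-miR-221, chosen by name and not by level. There were 8 such rows of 2590 in all, 4 of them microRNAs (miRs) and 4 of them microRNA-offset RNAs (moRs), from 2 of 808 hairpins. A miR is the short RNA that Drosha and Dicer cut from a hairpin precursor, and a moR is the piece that lies next to it on the outer side of the same hairpin arm. The cells were explants of several C57BL/6 aortas, freed of adventitia, grown in medium with serum and collected untreated when nearly confluent. By the paper's culture protocol, such cells were kept in medium with charcoal-treated serum ahead of experiments. The 3 libraries form 1 group, so each comparison below sets RNAs of the same library against each other. No library of resting cells, injured vessel or intact aorta was analysed here, and growth itself was not measured in these libraries.

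The Mir222 and Mir221 hairpins lie beside each other on the X chromosome and are known to be cut from a shared primary transcript. In smooth muscle miR-222 and miR-221 are known as growth-promoting miRs: in the rat they rise in the injured carotid artery and lower the cyclin-dependent kinase inhibitors encoded by Cdkn1b and Cdkn1c. Kit, the receptor for stem cell factor, is another known target, studied mainly in human endothelial and blood-forming cells. A miR pairs with its targets chiefly through the seed, bases 2 to 8 from its 5′ end. The arm of the hairpin that is loaded into an Argonaute protein accumulates, and the other arm is mostly degraded.

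The 4 mature miRs are printed because the seed is what the 3p members share and the 5p members do not. Capitals mark the seed. The sequences are from RefSeq for GRCm38.p6, the miR-222-5p sequence being read from the RefSeq hairpin at the deposited coordinates.
miR-222-3p: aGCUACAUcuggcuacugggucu
miR-221-3p: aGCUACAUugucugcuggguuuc
miR-222-5p: uCAGUAGCcaguguagauccu
miR-221-5p: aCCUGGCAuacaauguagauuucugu
Both 3p miRs carried the seed GCUACAU and were identical over their first 8 bases. Past the seed they diverged, and 11 of 23 aligned bases (47.8%) were identical in all. The longest stretch they shared was 8 bases, which is shorter than the shortest insert that was mapped, 14 bases. Their reads could therefore be told apart, and all 24 of the deposited values of the 8 rows were whole numbers, with no read split between loci. The 5p miRs had different seeds and 5 of 21 aligned bases identical. The seed GCUACAU is also carried by miR-1928, a miR of chromosome 1 with no row in the tables, whose RefSeq sequence is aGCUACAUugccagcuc. The seeds CAGUAGC of miR-222-5p and CCUGGCA of miR-221-5p were found in no other mouse miR of the RefSeq table.

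The hairpins are printed to show where the miRs and moRs lie. Capitals mark the 5p miR and then the 3p miR.
Mir222: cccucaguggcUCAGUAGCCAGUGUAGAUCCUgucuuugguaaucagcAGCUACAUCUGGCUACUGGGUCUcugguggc
Mir221: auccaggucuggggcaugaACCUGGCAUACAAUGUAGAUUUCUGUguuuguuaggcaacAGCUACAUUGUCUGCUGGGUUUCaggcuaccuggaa
Both hairpins lie on the minus strand of chromosome X in mm10. Mir222 spans chrX:19146893-19146971 (79 bases) and Mir221 spans chrX:19146294-19146388 (95 bases). The gap between them is 504 bases, and Mir222 comes first in the direction of transcription. No other gene of GENCODE M21 overlapped either hairpin. The nearest annotated gene was Gm14636, a processed transcript on the same strand, which ends 10009 bases upstream of Mir222. Within the hairpins, miR-222-3p lies at chrX:19146901-19146923, miR-222-5p at chrX:19146940-19146960, miR-221-3p at chrX:19146307-19146329 and miR-221-5p at chrX:19146344-19146369. RNAfold gave a minimum free energy of −40.7 kcal/mol to the Mir222 hairpin and −42.8 kcal/mol to the Mir221 hairpin. In the predicted folds, 2 of the first 4 bases of miR-222-3p were paired, while all of the first 4 were paired in miR-222-5p, miR-221-3p and miR-221-5p.

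The libraries held 12546339 to 15175671 reads in miR and moR windows, which was 73.1% to 83.0% of the mapped reads. Levels are given in RPMR, the deposited unit, in which the window reads of every library are scaled to the same total. A single read was worth 0.0659 to 0.0797 RPMR. Replicate 1 stood apart from the others: across 693 miRs with at least 10 reads, chi-square divided by its degrees of freedom was 265 and 304 against replicates 2 and 3, and 38.8 between replicates 2 and 3. Smooth muscle miRs were abundant, with miR-143-3p and miR-145a-5p together at 47412 to 57626 RPMR. The endothelial miR-126a arms summed to 125 to 158 RPMR, the blood list of 5 miRs to 0.88 to 1.28 RPMR, the epithelial list of 5 miRs to 7.17 to 8.07 RPMR and the neuronal list of 2 miRs to 11.8 to 12.5 RPMR, with all 3 miR-124-3p loci at 0. The striated muscle list, 4 of 5 miRs with a row, summed to 116 to 150 RPMR, nearly all of it miR-206-3p. In bulk RNA, fewer cells of a type and less RNA per cell cannot be told apart, and miR-222 and miR-221 are also known in endothelium. The part of other cells in the levels below was not tested. The titles call the libraries replicates without saying whether they came from separate cultures. A p-value thus speaks of no variation beyond these 3 samples, and the variation among them may be technical. The p-values also rest on a dispersion that is shared across the rows of a fit. Reads carried no molecular identifiers, and the intervals cover counting error only.

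miR-222-3p and miR-221-3p made up nearly all of the output of the pair. In replicates 1, 2 and 3, miR-222-3p had 394.7, 278.7 and 327.0 RPMR, from 5381, 3497 and 4963 reads, with a mean of 333.5 ± 58.3 RPMR (SD, n = 3). miR-221-3p had 1545, 1419 and 1763 RPMR, from 21066, 17805 and 26755 reads, with a mean of 1576 ± 174 RPMR (SD, n = 3). The ranges did not overlap, and miR-221-3p was the higher RNA in every library. The 5p miRs were much scarcer. miR-222-5p had 12.3, 12.3 and 12.5 RPMR, from 168, 154 and 189 reads, with a mean of 12.4 ± 0.0928 RPMR (SD, n = 3). miR-221-5p had 84.1, 53.8 and 64.1 RPMR, from 1147, 675 and 973 reads, with a mean of 67.4 ± 15.4 RPMR (SD, n = 3). The 4 miRs summed to 1989 ± 206 RPMR, which was 0.199% ± 0.0206 of window reads (SD, n = 3). Of this sum the Mir222 hairpin gave 345.8 ± 58.3 RPMR and the Mir221 hairpin 1643 ± 177 RPMR.

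**Figure D1:**
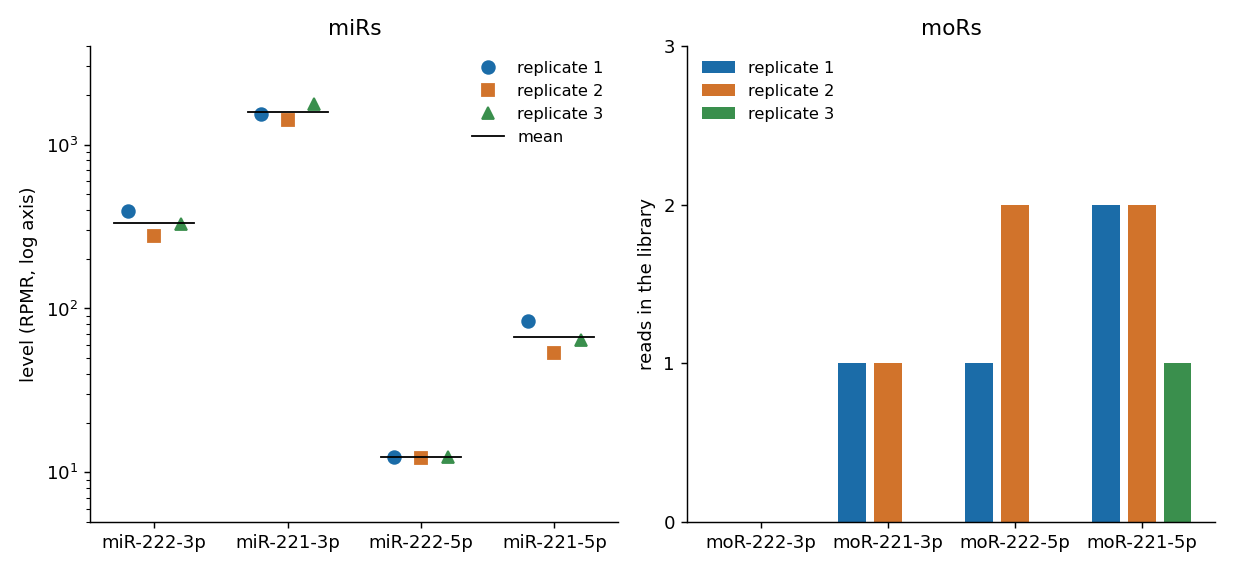
Levels of the 4 miRs (left, RPMR on a log axis) and reads of the 4 moRs (right) in each library, with Mir222 before Mir221 on each arm; points and bars are single libraries and the line is the mean of 3. miR-221-3p is near 1576 RPMR and miR-222-5p near 12.4 RPMR, and no moR has more than 2 reads in a library.

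Replicate 1 was the highest library for miR-222-3p and miR-221-5p and lay between the others for miR-221-3p. The spread between libraries, as the coefficient of variation, was 17.5% for miR-222-3p, 11.0% for miR-221-3p and 22.9% for miR-221-5p, against 1.47%, 0.676% and 3.28% from counting alone. Other miRs of like level had a median of 11.4% beside miR-222-3p (62 rows), 13.1% beside miR-221-3p (27 rows) and 12.4% beside miR-221-5p (66 rows). miR-222-5p varied by 0.751%, less than the 7.66% that counting alone gives for its reads, so its 3 values lie closer together than its depth can resolve.

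The order of all miRs places the pair among the abundant miRs of these cells. By mean RPMR, miR-221-3p stood at rank 51 of 1295 miR rows and miR-222-3p at rank 101. By library the ranks were 93, 108 and 104 for miR-222-3p and 50, 50 and 49 for miR-221-3p. miR-221-5p stood at rank 183 and miR-222-5p at rank 297. Summed by seed, GCUACAU held 1909 RPMR and stood at rank 22 of 910 seeds, counted over the 1050 of 1230 mature names that have a RefSeq sequence. Levels of different miRs also carry the bias of adaptor ligation in library preparation, which was not measured here.

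**Figure D2:**
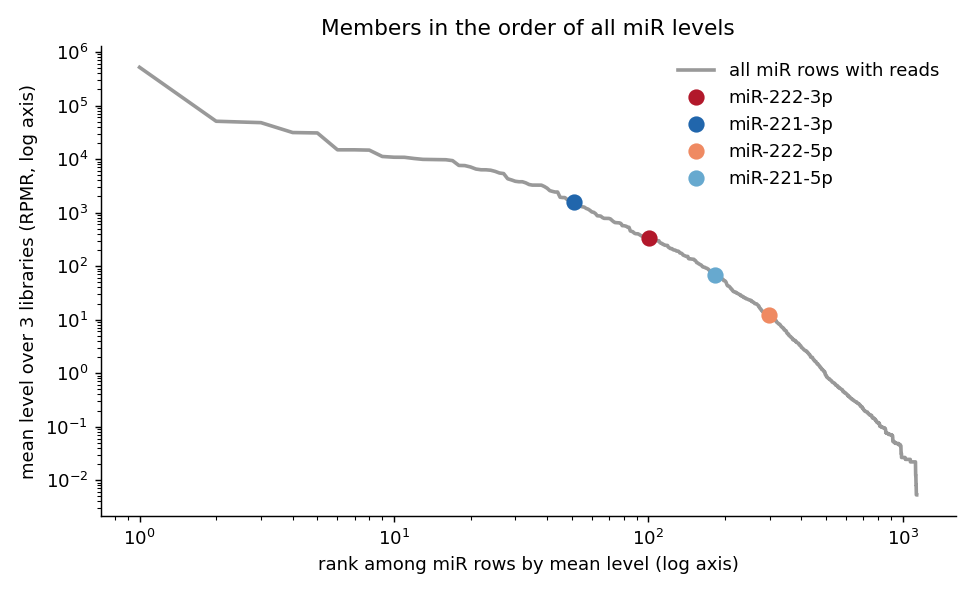
Mean level of each miR row with reads (RPMR over 3 libraries, log axis) against its rank (log axis), with the 4 miRs of the pair as coloured points on the grey curve of all miRs. miR-221-3p is at rank 51, miR-222-3p at rank 101, miR-221-5p at rank 183 and miR-222-5p at rank 297.

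Each miR row with at least 10 reads was then tested against miR-222-3p and against miR-221-3p within the libraries. Of 692 rows, 87 (12.6%) were higher than miR-222-3p, 580 (83.8%) were lower and 25 did not pass an adjusted p of 0.05 in edgeR's quasi-likelihood test with Benjamini-Hochberg adjustment. Against miR-221-3p, 44 of 692 rows (6.36%) were higher, 639 (92.3%) were lower and 9 did not pass. All rows of a fit share the same reference counts, so their calls are not independent. The p-values depend on the fit. miR-221-3p against miR-222-3p had an adjusted p of 2.2e-08 in the first fit and 2.5e-45 in the second (edgeR). Beside miR-222-3p, at 333.5 ± 58.3 RPMR, the next miRs above were miR-467c-5p at 333.5 ± 16.0, miR-186-5p at 338 ± 38.0 and miR-181a-5p of the Mir181a-1 locus at 356 ± 50.2 RPMR (SD, n = 3). The next below were miR-467e-5p at 323 ± 40.5, miR-125b-2-3p at 318 ± 6.28 and let-7d-3p at 313 ± 29.2 RPMR (SD, n = 3). Their log2 differences over miR-222-3p lay between −0.08 and 0.10, and their ranges overlapped its range over the libraries. Beside miR-221-3p, at 1576 ± 174 RPMR, the next above were miR-23b-3p at 1588 ± 208, miR-423-3p at 1744 ± 172 and miR-25-3p at 1750 ± 357 RPMR, and the next below were let-7e-5p at 1522 ± 140, miR-92a-3p of the Mir92-1 locus at 1423 ± 120 and miR-93-5p at 1324 ± 273 RPMR (SD, n = 3). Their log2 differences over miR-221-3p lay between −0.27 and 0.15, again with overlapping ranges. These rows were chosen for their closeness in mean level in the same libraries, so the small differences describe the order and are no test of it. The miR-181a-5p and miR-92a-3p rows each hold only a part of the reads of the miR, which were divided between its loci.

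To ask which arm of each hairpin gives the miR, the 3p miR was set against the 5p miR of the same hairpin. The 3p arm was higher in both hairpins and in every library. For Mir222 the 3p miR had 32.0 (95% exact Clopper-Pearson interval 27.5 to 37.6), 22.7 (19.3 to 26.9) and 26.3 (22.7 to 30.5) reads per read of the 5p miR in replicates 1, 2 and 3. For Mir221 it had 18.4 (17.3 to 19.5), 26.4 (24.4 to 28.5) and 27.5 (25.8 to 29.3). The 3p miR thus took 96.4% ± 0.596 of the miR reads of Mir222 and 95.9% ± 0.917 of those of Mir221 (SD, n = 3). The log2 difference, 3p over 5p, was 4.74 ± 0.17 (SE) for Mir222 (26.7-fold, adjusted p = 1.2e-12 in edgeR) and 4.57 ± 0.16 (SE) for Mir221 (23.7-fold, adjusted p = 8.0e-13 in edgeR).

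An arm difference of this kind was common. Of 373 hairpins tested, 162 (43.4%) were higher on the 3p arm and 160 (42.9%) on the 5p arm, and the median size of the log2 difference was 4.05 over all of them. A larger log2 difference in favour of the 3p arm was found in 79 hairpins for Mir222 and in 81 for Mir221. Both 3p miRs begin with A, miR-222-5p with U and miR-221-5p with A. Among 268 hairpins called in this test with both sequences at hand, the higher arm began with U in 57.8% and with A in 22.4%, while the lower arm began with U in 18.7% and with A in 35.8%.

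**Figure D3:**
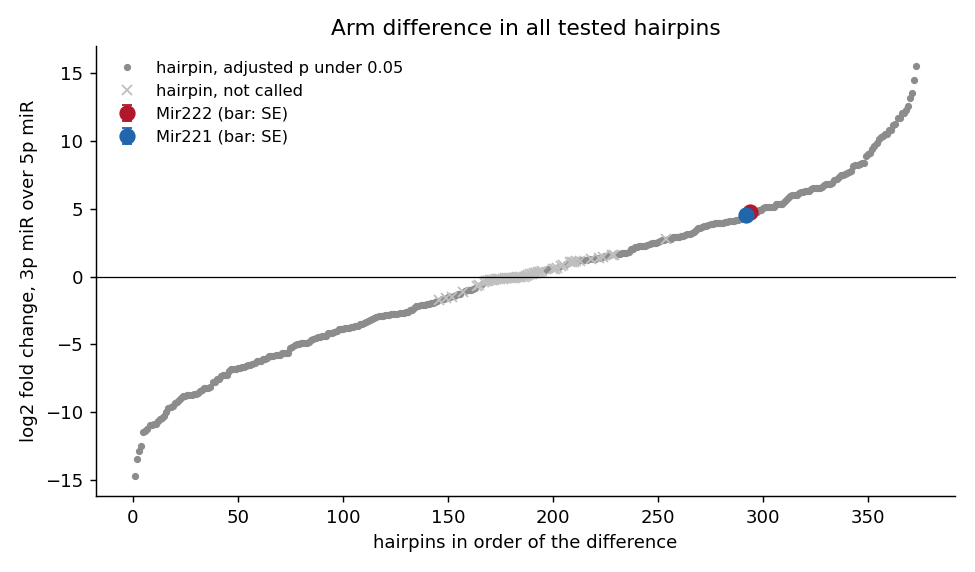
Log2 difference of the 3p miR over the 5p miR (vertical axis) for 373 hairpins in order of the difference; dots passed an adjusted p of 0.05, crosses did not, and the bars on the coloured points are standard errors. Mir222 at 4.74 and Mir221 at 4.57 lie close together in this order, with 79 and 81 hairpins above them.

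To ask whether neighbouring hairpins stand at the same level, miRs of the same arm were compared between Mir222 and Mir221. The miRs of Mir222 were the lower ones on both arms and in every library. On the 3p arm there were 0.255 (95% exact interval 0.248 to 0.263), 0.196 (0.189 to 0.204) and 0.185 (0.180 to 0.191) reads of miR-222-3p per read of miR-221-3p in replicates 1, 2 and 3. On the 5p arm there were 0.146 (0.124 to 0.172), 0.228 (0.190 to 0.272) and 0.194 (0.165 to 0.227) reads of miR-222-5p per read of miR-221-5p. The 3p ratio was highest in replicate 1, and the 5p ratio was lowest there. The log2 difference, Mir222 over Mir221, was −2.25 ± 0.12 (SE) for the 3p miRs (adjusted p = 0.00011 in edgeR) and −2.43 ± 0.15 (SE) for the 5p miRs (adjusted p = 0.00017 in edgeR). In linear terms miR-221-3p was 4.75-fold above miR-222-3p, and miR-221-5p was 5.37-fold above miR-222-5p.

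Unequal neighbours were also common. Of 238 comparisons of the same arm between consecutive hairpins with starts within 10000 bases on one strand, 209 (87.8%) passed the test. In 103 of the 238 (43.3%) the upstream hairpin passed as lower, as here, and the median size of the log2 difference was 3.23. A larger size was found in 156 comparisons for the 3p miRs of this pair and in 147 for its 5p miRs. The count for miR-222-3p bears 1 limit of its windows. The deposited miR-222-3p ends 2 bases before the RefSeq one, so that its window runs 1 base past the RefSeq 3′ end. The windows of miR-221-3p and miR-221-5p run 3 bases past theirs, and reads that run further were not counted. For miR-222-5p there was no RefSeq mature end to compare with.

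The balance of the arms was then compared between the neighbours. In replicate 1 the 3p over 5p ratio was higher for Mir222, 32.0 against 18.4 for Mir221, with intervals that did not overlap. In replicate 2 it was 22.7 for Mir222 and 26.4 for Mir221, and in replicate 3 it was 26.3 for Mir222 and 27.5 for Mir221, with overlapping intervals in each. The log2 difference of the ratios, Mir222 over Mir221, was 0.18 ± 0.19 (SE; 95% interval −0.24 to 0.60; adjusted p = 0.41 in edgeR). Without replicate 1, the library that stands apart, it was −0.14 (adjusted p = 0.38 in edgeR). No difference in arm balance was thus detected between the hairpins, within an interval that allows up to 0.60 on the log2 scale. Of 92 pairs of neighbours tested, 81 (88%) passed the test and 11 did not, and 87 had a larger size of the log2 difference than this pair, with a median of 4.20. The other pairs that did not pass included Mir23b with Mir27b at −0.08 ± 0.20 (SE) and Mir193b with Mir365-1 at 0.01 ± 0.29 (SE), chosen after their values were seen.

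**Figure D4:**
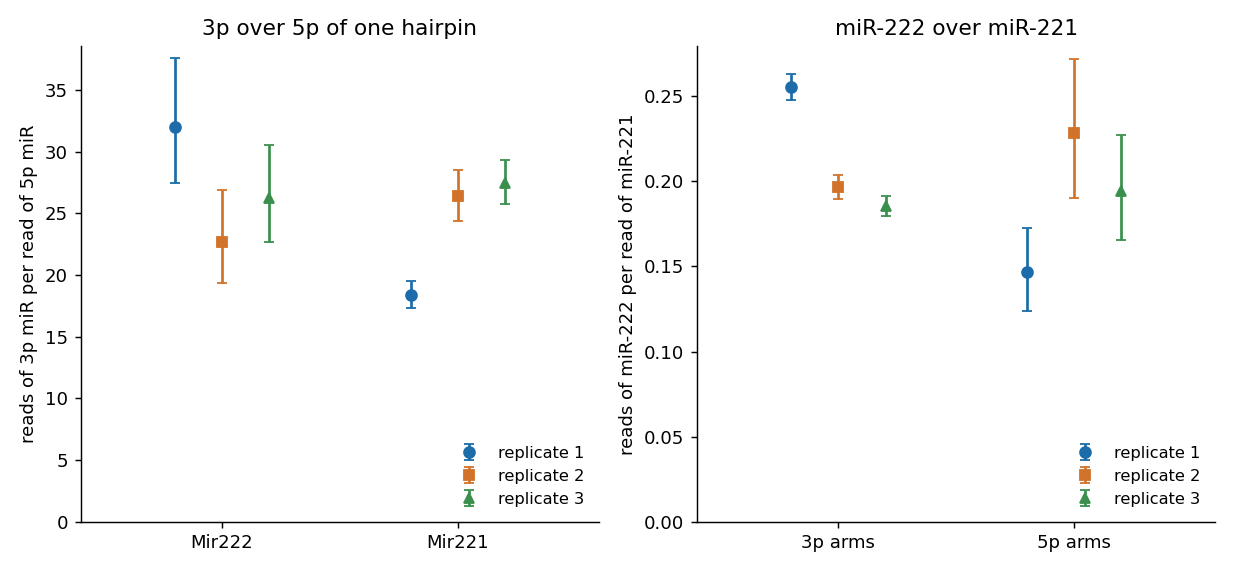
Reads of the 3p miR per read of the 5p miR for each hairpin (left) and reads of miR-222 per read of miR-221 for each arm (right) in the 3 libraries; points are single libraries and bars are 95% exact Clopper-Pearson intervals. Replicate 1 is highest for Mir222 at 32.0 and lowest for Mir221 at 18.4, and every ratio on the right lies below 1.

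**Figure D5:**
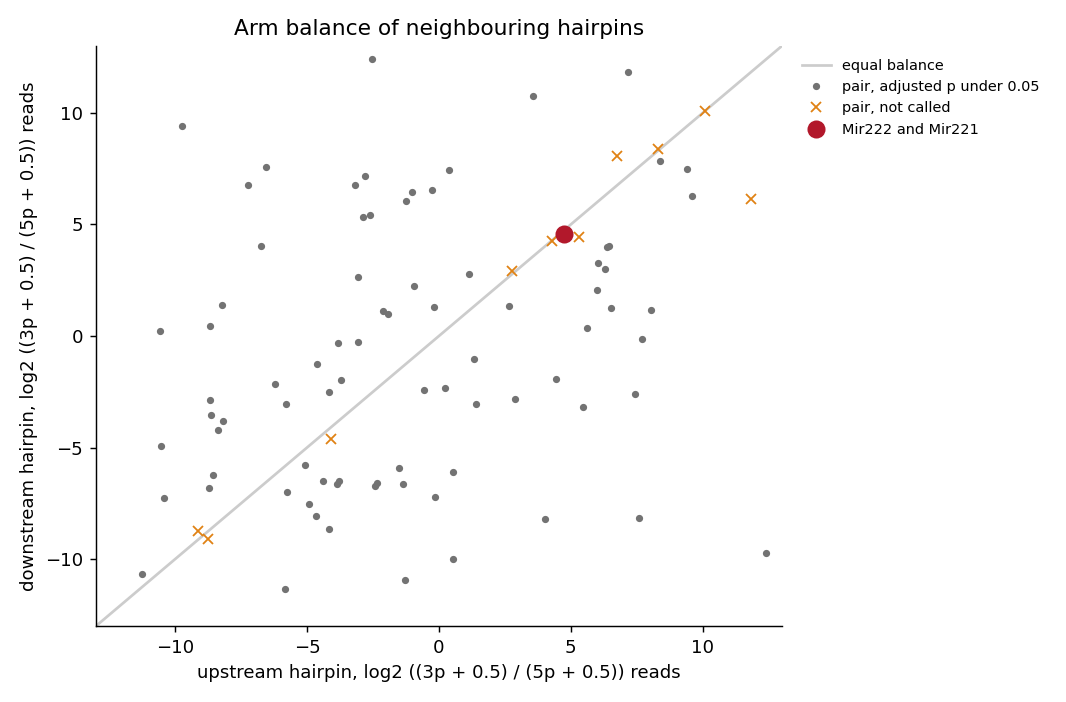
Log2 ratio of 3p over 5p reads, each with 0.5 added, summed over 3 libraries, of the upstream hairpin (horizontal axis) and of the downstream hairpin (vertical axis) for 92 pairs of neighbours; grey dots passed an adjusted p of 0.05, crosses did not, and the line marks equal balance. The Mir222 and Mir221 pair is the large point close to the line.

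The moRs of the pair were at the limit of detection. moR-222-3p had no read in any library, and at this depth a count of 0 allows up to 3 reads, or 0.198 to 0.239 RPMR, in a library. moR-221-3p had 1, 1 and 0 reads, moR-222-5p 1, 2 and 0 reads and moR-221-5p 2, 2 and 1 reads in replicates 1, 2 and 3. Only moR-221-5p was seen in every library, with 5 reads in all. At these counts no order among the 4 moRs can be read. Of 1295 moR rows, 294 had a summed count above 0, with a median of 3 reads, and 120 had more reads than moR-221-5p.

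Each moR was counted in a window of 39 bases that holds the outermost 4 bases of the deposited miR and extends outward past the end of the annotated hairpin. The moR-222-3p window holds 6 bases of the RefSeq miR-222-3p printed above. The parts inside the hairpins are printed because they are what such a read would hold in part.
moR-222-5p: cccucaguggcucag
moR-222-3p: gggucucugguggc
moR-221-5p: auccaggucuggggcaugaaccu
moR-221-3p: uuucaggcuaccuggaa
On the 5p arms there were 3 moR reads against 511 miR reads for Mir222, which is 170 miR reads per moR read (95% exact interval 58.0 to 829), and 5 moR reads against 2795 miR reads for Mir221, which is 559 (239 to 1723). On the 3p arms there were 0 moR reads against 13841 miR reads for Mir222, so that the moR was at least 4614-fold lower than the miR with a floor of 3 reads over the libraries, or at least 3752-fold lower by the exact interval used for the other arms. For Mir221 there were 2 moR reads against 65626 miR reads, or 32813 miR reads per moR read (9083 to 270953). The fitted log2 difference, moR over miR, was −7.24 ± 0.44 (SE) for the 5p arm of Mir222, −9.02 ± 0.38 (SE) for the 5p arm of Mir221 and −14.75 ± 0.47 (SE) for the 3p arm of Mir221, with adjusted p of 7.6e-48, 1.0e-82 and 3.7e-116 in edgeR. At 2 to 5 reads these fitted values depend on the prior count and are no bounds. Their p-values rest on a dispersion shared across the tested arms, more than on the few moR reads. Of 241 arms with a moR read that were tested, 13 (5.39%) had more moR than miR and 92.1% had less, and the median log2 difference was −8.71.

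At other arms of like miR level, moR reads were also few beside miR-222-3p and the 5p miRs, and more frequent beside miR-221-3p. Among the 20 arms nearest in rank to miR-222-3p, 9 had no moR read, the median was 1.5 reads and the highest 19. Among the 20 nearest to miR-221-3p, 4 had none, the median was 10 reads and the highest 137, beside the 2 reads of moR-221-3p. Of the 20 arms nearest to each 5p miR, 14 had no moR read beside miR-222-5p and 13 beside miR-221-5p.

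Other miRs that act on the growth or contractile state of smooth muscle were placed beside the pair. Among 6 miRs known to favour growth or dedifferentiation (8 rows), 6 rows were higher than miR-222-3p, 1 was lower and 1 did not pass, and 5 were higher than miR-221-3p, 2 were lower and 1 did not pass (edgeR, as above). Their median log2 difference was 3.29 over miR-222-3p and 1.04 over miR-221-3p, beside −5.74 and −7.99 over all 692 rows tested. Of all these rows, 12.6% were higher and 83.8% lower than miR-222-3p, and 6.36% were higher and 92.3% lower than miR-221-3p. miR-21a-5p was by far the most abundant at 517698 ± 25158 RPMR. miR-31-5p, known in the rat to lower the growth inhibitor Lats2, had 1909 ± 255 RPMR, and its log2 difference over miR-221-3p was 0.27 (adjusted p = 0.055 in edgeR), which DESeq2 placed just inside the threshold (adjusted p = 0.046) and the other alternatives did not (adjusted p 0.055 to 0.18). miR-146a-5p, known to act on the transcription factor Klf4, had 366 ± 47.9 RPMR, and its log2 difference over miR-222-3p was 0.14 (adjusted p = 0.37 in edgeR). miR-130a-3p, known to act on the growth-arrest gene Meox2, was lower than both 3p miRs of the pair at 152 ± 10.3 RPMR. The remaining rows, miR-24-3p at 3253 ± 421 RPMR at each locus and miR-26a-5p at 14881 and 14880 RPMR at its loci, were higher than both. Reads of such copies were split evenly between loci, so each row holds only its part of the reads of that miR. Each of these miRs thus enters the list with a row per locus. Both medians of the list are the value of the miR-24-3p rows.

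Among 7 miRs known to favour the contractile state or restrain growth (9 rows), 4 rows were higher than miR-222-3p and 1 was lower, while 3 were higher than miR-221-3p and 2 were lower, and the 4 rows of miR-1a-3p and miR-133a-3p had under 10 reads and were not tested. Those 4 rows lay far below both 3p miRs of the pair, at 0.189 RPMR for each miR-1a-3p locus and 0.00815 RPMR for each miR-133a-3p locus. The median log2 difference of the tested rows was 3.44 over miR-222-3p and 1.19 over miR-221-3p, beside −5.74 and −7.99 over all 692 rows. These medians leave out the lowest rows of the list. Of all 692 rows, 12.6% were higher and 83.8% lower than miR-222-3p, and 6.36% were higher and 92.3% lower than miR-221-3p. miR-143-3p, which with miR-145a-5p marks contractile smooth muscle, had 50855 ± 4963 RPMR. miR-145a-5p had 1195 ± 258 RPMR, higher than miR-222-3p and lower than miR-221-3p by a log2 difference of −0.42 (adjusted p = 0.0053 in edgeR). This call against miR-221-3p was lost without replicate 2 and without replicate 3, which leaves 1 row of the list lower, miR-195a-5p at 58.2 ± 9.06 RPMR. let-7d-5p had 3586 ± 268 RPMR and let-7g-5p had 9344 ± 843 RPMR, and both were higher than both 3p miRs of the pair.

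The last list holds 5 miRs known to act on Cdkn1b or Kit, the targets of the pair. Among them, miR-24-3p was already in the growth list above, so the lists are not independent. Of their 7 rows, 2 were higher than miR-222-3p, 2 were lower and 3 did not pass, with a median log2 difference of 0.10. Against miR-221-3p, 2 were higher and 5 were lower, with a median of −2.15. Over all 692 rows the medians were −5.74 and −7.99. Of those rows, 12.6% were higher and 83.8% lower than miR-222-3p, and 6.36% were higher and 92.3% lower than miR-221-3p. The higher rows were the loci of miR-24-3p. miR-34a-5p had 364 ± 58.8 RPMR and miR-181a-5p 356 RPMR at the Mir181a-1 locus, with log2 differences over miR-222-3p of 0.13 and 0.10 (adjusted p 0.40 and 0.51 in edgeR). miR-181a-5p had 357 RPMR at the Mir181a-2 locus, which did not pass either. Its reads were divided between the loci, so the miR as a whole stands higher than either row. The median of 0.10 is itself a miR-181a-5p row. miR-193b-3p had 32.4 ± 9.06 RPMR and miR-494-3p 14.7 ± 1.74 RPMR, both lower than either 3p miR of the pair.

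The pattern across the 3 libraries was compared between miRs as a description. Over 320 other miR rows with at least 100 reads in every library, the rows closest to miR-222-3p in library-centred log2 RPMR were miR-7a-5p of Mir7-2 (distance 0.0161) and of Mir7-1 (0.0176), which share reads, and miR-34a-5p (0.0282). miR-221-3p was at place 170 in this order, with a distance of 0.348. The rows closest to miR-221-3p were miR-598-3p (0.0171), miR-191-5p (0.0370) and miR-1306-5p (0.0376). The points are only 3 libraries of 1 group, and replicate 1 stands apart among them.

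The seed of the 3p miRs pairs with ATGTAGC in a transcript. This heptamer was searched on the sense strand of the longest annotated 3′ untranslated region of each gene in GENCODE M21, and 1989 of 21037 genes (9.45%) held it. The known targets are printed as DNA because they show the match that miR-222-3p and miR-221-3p have in common, with the heptamer in capitals.
Cdkn1b: ctctaaaagcattggATGTAGCa
Cdkn1c: tgggacctttcgttcATGTAGCa
Kit, first match: aatgatgggagatatATGTAGCa
Kit, second match: tttgtaaatattgaaATGTAGCa
The Cdkn1b match lies at chr6:134924416-134924438 on the plus strand and the Cdkn1c match at chr7:143458925-143458947 on the minus strand. The Kit matches lie at chr5:75654977-75654999 and chr5:75656508-75656530 on the plus strand. Each heptamer is followed by an A. A match is a description of the sequence, and no transcript or protein of these genes was measured in these libraries.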

How the data were processed

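Small RNA of 3 AoSMC libraries was read as single reads on an Illumina HiSeq. The authors trimmed adaptors, aligned inserts over 13 bases without mismatch to mm10 with Bowtie (the version is not given in the sources read) and assigned reads to miR windows (miRBase coordinates widened by 3 bases) and to moR windows. Reads near several precursors were divided among them, so the deposited reads are expected counts. The deposited RPMR is an RPM value whose denominator is the sum of window reads in the library, and library totals were deposited too. Recomputing RPMR from the counts gave the deposited values to within 7.3e-12. Reads with added or changed bases cannot map under these settings. Starts were read as 1-based, since 1670 of 1679 miR windows then equalled the RefSeq miR widened by 3 bases.

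Each column carries a sample number, taken as the replicate number in the titles. Counts were rounded and tested with edgeR 4.0.16 (R 4.3.3), quasi-likelihood, with window totals as library sizes and the library as block, since both values of a comparison come from 1 library. Rows or pairs with at least 10 reads in sum were fitted over the whole table, and a Benjamini-Hochberg adjusted p under 0.05 was called. The test was also run on simulated counts with a single fixed dispersion and no library that stands apart. It is thus no check of the p-values in libraries such as these. In that simulation the reference counts were drawn anew for each row, so the use of a shared reference was not checked. Alternatives were no block, DESeq2 1.42.0, TMM scaling, minimums of 1 and 100 reads, other denominators and leaving out each library. Ratios have 95% exact Clopper-Pearson intervals. Folding used ViennaRNA 2.7.2, other steps Python 3.11.15 with SciPy 1.17.1, pandas 2.3.3, numpy 2.4.6 and matplotlib 3.10.9.

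The members, lists and markers were chosen with earlier results of these data known. The named rows are all members, miRs sharing a member's seed, the 3 rows above and below each 3p miR in mean RPMR, the 3 rows closest in pattern to miR-222-3p and members of the lists. The rows closest to miR-221-3p, the target genes, miR first bases and predicted folds were added after values were seen.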

Additional observations from a re-analysis of the deposited data

How the results depend on the processing

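The arm, neighbour and moR differences of the pair kept their direction and their call under every alternative run: 4.61 to 4.86 for the arms of Mir222 and 4.46 to 4.75 for those of Mir221, −2.39 to −2.16 for the 3p neighbours, −2.57 to −2.26 for the 5p neighbours, and for moR over miR −8.16 to −6.63 on the 5p arm of Mir222, −9.35 to −8.73 on the 5p arm of Mir221 and −15.22 to −14.08 on the 3p arm of Mir221 (log2). Fits with no replicate block changed no call of the pair. The arm balance, Mir222 over Mir221, ranged from −0.14 to 0.37 (adjusted p 0.27 to 0.44 in edgeR or DESeq2) and reversed only without replicate 1, to −0.14, and the cause was not tested. With at least 100 reads, where fewer rows are tested, 107 hairpins were higher on the 3p arm, 4 arms had more moR than miR against 13 with at least 10 reads, and 311 and 371 miRs were lower than miR-222-3p and miR-221-3p. With at least 1 read, 1010 miRs were lower than miR-222-3p, and the fit against miR-221-3p was not run because its trend could not be fitted. At that minimum, 3 rows of the contractile list were lower than miR-222-3p, against 1 with at least 10 reads. Leaving out a library gave 6 to 11 arms with more moR than miR. With mapped reads as denominator, the mean level of miR-222-3p was 263 (333.5 RPMR as deposited), that of miR-221-3p 1251 and that of miR-222-5p 9.80 on the same scale. Without miR-21a-5p in the denominator, miR-222-3p stood at 689, miR-221-3p at 3271, miR-222-5p at 25.7 and miR-221-5p at 139, and moR-221-3p at 0.106, moR-222-5p at 0.163 and moR-221-5p at 0.257. These changes are the scale of the denominator. With 2 to 5 reads per moR, depth limits what can be said of the moRs.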
